A study of Arabidopsis thaliana with 12 samples.

Results

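The genes described here encode a pair of Calvin-Benson cycle enzymes, PRK (AT1G32060) and SBPASE (AT3G55800), and a pair of plastid thiol redox proteins, NTRC (AT2G41680) and the peroxiredoxin PRXIIE (AT3G52960). They were taken as every array probe annotated to exactly 1 gene among these 4. This gave 4 genes on 1 probe each, among 691 genes on the 692 probes with 1 gene and 3439 probes in the table. No probe annotated to several genes held any of them, and all 4 were measured on all 12 arrays and were tested. Transcript levels were compared between Arabidopsis thaliana wild type of the Columbia 0 ecotype (WT) and the psaf line in the same ecotype. Plants of the psaf line express an antisense construct against PSAF and are without PSI-F, the photosystem I protein at the docking site of plastocyanin. Total RNA was hybridised to 12 single-channel arrays, 6 of each genotype, numbered 1 to 6. Not given in the sources used here were the construct's promoter, the number of lines, the tissue, how plants were grown and how many stood behind an array.

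Photosystem I passes electrons to ferredoxin, and from there either to NADP or, through ferredoxin-thioredoxin reductase, to the plastid thioredoxins. Thioredoxins reduce disulfides in several Calvin-Benson cycle enzymes in the light, and PRK and SBPASE are textbook targets that are active in the reduced form. NTRC takes electrons from NADPH instead and joins a reductase and a thioredoxin domain in a single protein, which reduces some plastid peroxiredoxins. Whether PRXIIE is among them cannot be told from these data. Peroxiredoxins are thiol peroxidases that remove hydrogen peroxide and organic peroxides.

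Array totals ran from 3563 to 3745 intensity units, with 4.45% to 5.18% of probes at 0. In WT and in psaf, the arrays numbered 1 and 2, 3 and 4, and 5 and 6 were each other's nearest, and their log2 values differed with a robust SD of 0.119 to 0.157. Between other arrays of a genotype it was 0.219 to 0.432. Each close pair was therefore averaged on the log2 scale and counted as 1 sample, giving 3 pair means per genotype for every SD and for the main test. Whether arrays or pairs stand for separate plants is not stated in the labels. The p-values therefore measure only the spread between these samples, which may be technical, and precision is limited by the 3 pair means per genotype. The log2 difference of the median tested probe, psaf minus WT, was -0.29 on the deposited scale. It was -0.01 after quantile normalisation, 0.06 after median centring of the arrays and 0.03 after cyclic loess. PSAF itself was on 0 probes with 1 gene, and its transcript could not be used to check the labels. These are bulk RNA samples, in which fewer cells of a type and less RNA per cell cannot be told apart.

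Between the genotypes, PRK rose, SBPASE and AT3G52960 fell on the deposited scale, and NTRC did not pass the test. In limma on pair means (adjusted p under 0.05) this was 3 of 4 genes called, where 38.9% of all 3266 tested probes were called. By direction, 4.81% of tested probes were called higher in psaf and 34.1% lower. On the deposited scale the single rise therefore went against the direction of most calls. A share of 2 falls among 4 genes can be read only against that background. Under the other scalings the calls were nearer balance. After quantile normalisation 8.79% were called higher and 12.9% lower, after median centring 13.1% and 10.1%, and after cyclic loess 10.9% and 12.4%. The calls for PRK and AT3G52960 were also made under each of the 3 other scalings, and the call for SBPASE was not.

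**Figure D1:**
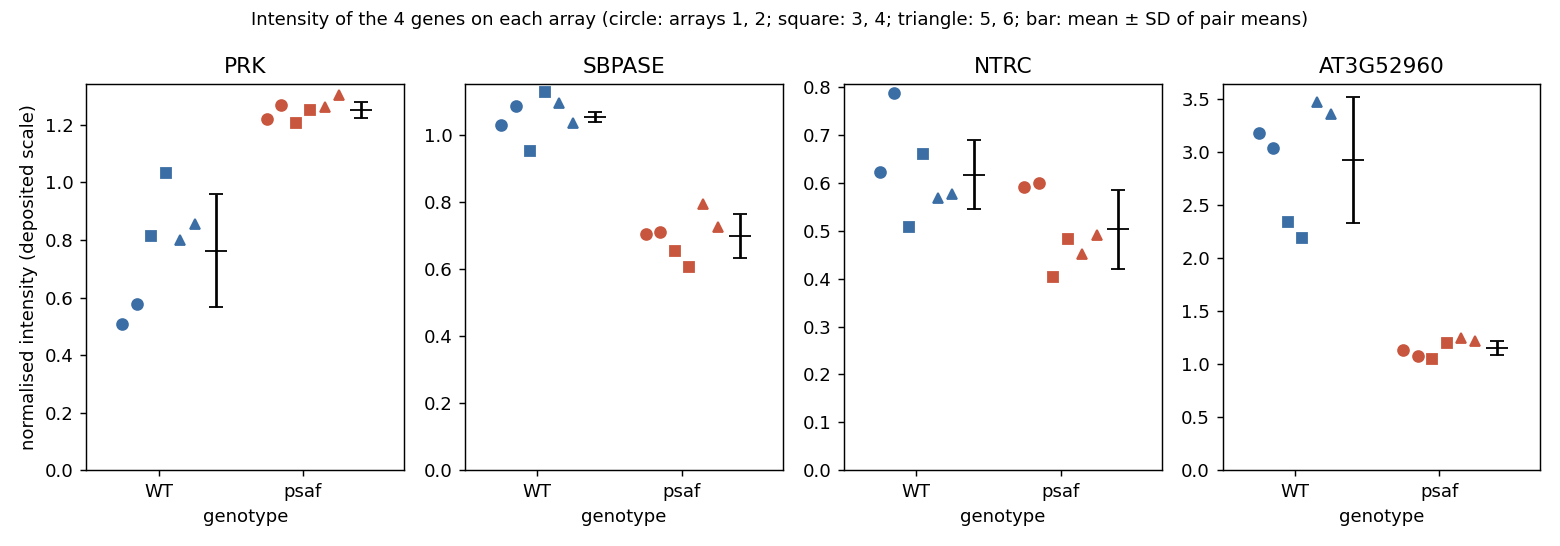
Normalised intensity (vertical axis, deposited scale, starting at 0) of PRK, SBPASE, NTRC and AT3G52960 on each of the 6 WT and 6 psaf arrays, with the mean ± SD of the 3 pair means of a genotype as black bars. The psaf arrays lie above all WT arrays for PRK, below all WT arrays for SBPASE and AT3G52960, and overlap the WT arrays for NTRC through psaf arrays 1 and 2.

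PRK encodes phosphoribulokinase, which uses ATP to make ribulose bisphosphate, the substrate that Rubisco carboxylates. On WT arrays 1 to 6 its intensity was 0.508, 0.576, 0.814, 1.03, 0.801 and 0.854. On psaf arrays 1 to 6 it was 1.22, 1.27, 1.21, 1.25, 1.26 and 1.30. Every psaf array read above every WT array, and WT arrays 1 and 2 were the lowest. Arrays of the genotypes failed to overlap in this direction for 6.74% of tested probes. The mean of the pair means rose from 0.762 ± 0.197 in WT to 1.25 ± 0.0277 in psaf (SD, n = 3 pair means), a log2 difference of 0.75 ± 0.20 (SE) or 1.68-fold, with a 95% confidence interval of 1.20 to 2.36-fold (limma adjusted p = 0.0286). Of the 3266 tested probes, 89 had a larger log2 difference.

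The PRK rise was larger once the arrays were rescaled. The log2 difference was 1.005 after quantile normalisation, 1.10 after median centring and 1.04 after cyclic loess, with limma adjusted p of 0.0183, 0.0115 and 0.0204 on pair means. Under these scalings 8.79%, 13.1% and 10.9% of tested probes were called higher. PRK was called higher in all 8 fits made from 4 scalings with and without averaging of pairs, as were 3.98% of tested probes; the 4 fits on pair means are the stricter ones. Its call on the deposited scale ended without WT array 3 (0.69, adjusted p = 0.0548) and without any of the 3 psaf pairs (0.73 to 0.76, adjusted p = 0.0763 to 0.0900).

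The spread of PRK differed between the genotypes. Its pair means had a log2 SD of 0.40 in WT, where the median tested probe had 0.20, and of 0.03 in psaf, where the median tested probe had 0.14. In psaf 3.71% of tested probes had a smaller SD than PRK. The WT spread lay in arrays 1 and 2, which stood 0.67 and 0.49 log2 below the WT median of PRK. On the same arrays the median of the 4 probes with the nearest probe numbers stood 0.66 and 0.59 log2 below its own WT median. Each of these 4 neighbours was low there, by deviations of -0.31 to -0.84. Between genotypes these neighbours differed by 0.94 (probe 3149, annotated to 2 genes, limma adjusted p = 0.0286), 0.34 (probe 3152), -0.05 (probe 3153) and -0.17 log2 (probe 3148), the last 3 without a call. Subtracting the neighbours' median deviation from each array lowered the WT log2 SD of PRK from 0.40 to 0.02, and the log2 difference became 0.61. The deviations are taken within each genotype, so this correction mainly acts on the spread within a genotype. It can hardly remove a difference that neighbours share. The WT log2 SD also fell for NTRC (0.16 to 0.11) and AT3G52960 (0.31 to 0.28), and it rose for SBPASE (0.02 to 0.05). After the correction 8.91% of tested probes were called higher and 49.3% lower, and its p-values are no check of a difference. Without WT arrays 1 and 2 the log2 difference of PRK was 0.52 (limma adjusted p = 0.0192). The rise was therefore smaller but was still called when these arrays were left out.

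**Figure D2:**
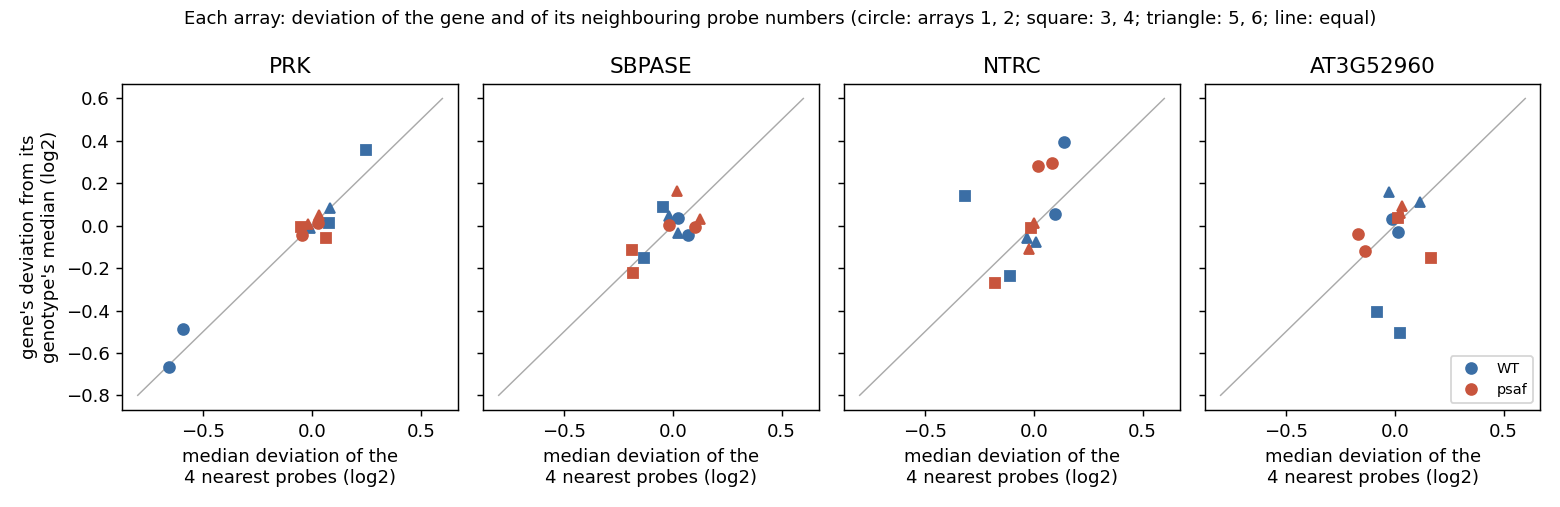
Deviation of each gene from the median of its genotype on each array (vertical axis, log2) against the median deviation of the 4 probes with the nearest probe numbers (horizontal axis, log2), for 6 WT and 6 psaf arrays; the grey line marks equal deviations. For PRK, WT arrays 1 and 2 lie near the line at about -0.66 and -0.59 on the horizontal axis, while the low WT arrays 3 and 4 of AT3G52960 have neighbours near 0. Probe 1969, a neighbour of AT3G52960, was not measured on the WT arrays and is left out of their medians.

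SBPASE encodes sedoheptulose-bisphosphatase, a phosphatase of the regeneration phase of the same cycle, upstream of PRK. On WT arrays 1 to 6 it read 1.03, 1.09, 0.954, 1.13, 1.10 and 1.04. On psaf arrays 1 to 6 it read 0.707, 0.712, 0.655, 0.608, 0.795 and 0.726. All psaf arrays were below all WT arrays on the deposited scale, as for 35% of tested probes. The mean of the pair means fell from 1.05 ± 0.0146 in WT to 0.700 ± 0.0649 in psaf (SD, n = 3 pair means), a log2 difference of -0.59 ± 0.11 (SE). The level in psaf was 66.2% of that in WT, with a 95% confidence interval of 55.0% to 79.8% (limma adjusted p = 0.00859). The WT pair means were 1.06, 1.04 and 1.07, and 0.674% of tested probes had a smaller log2 SD in WT.

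Part of the SBPASE difference was shared with the median probe, which stood at -0.29. Relative to that probe the log2 difference was -0.30, and 25.9% of tested probes had a lower difference. It was -0.30 after quantile normalisation, -0.24 after median centring and -0.28 after cyclic loess, with limma adjusted p of 0.108, 0.197 and 0.115 on pair means, where 12.9%, 10.1% and 12.4% of tested probes were called lower. Under each of these 3 scalings at least 1 psaf array read above the lowest WT array. Over 12 arrays without averaging SBPASE was called lower under all 4 scalings (limma adjusted p from 1.78e-05 to 0.0237), a unit of replication that counts each array of a close pair separately. Because such arrays were correlated (0.76), p-values over 12 arrays are too small, and these calls are not taken as support. Over 12 arrays 50.2% of tested probes were called lower on the deposited scale, 26.1% after quantile normalisation, 22.1% after median centring and 24.4% after cyclic loess.

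AT3G52960 encodes the plastid peroxiredoxin PRXIIE. Its intensity on WT arrays 1 to 6 was 3.18, 3.04, 2.34, 2.19, 3.47 and 3.36. On psaf arrays 1 to 6 it was 1.13, 1.07, 1.05, 1.20, 1.24 and 1.21. The lowest WT array read above the highest psaf array, and WT arrays 3 and 4 were the lowest of their genotype. The mean of the pair means fell from 2.93 ± 0.594 to 1.15 ± 0.0681 (SD, n = 3 pair means), a log2 difference of -1.33 ± 0.17 (SE). The psaf level was 39.8% of the WT level, with a 95% confidence interval of 30.0% to 53.0% (limma adjusted p = 0.00346). Of the 3266 tested probes, 58 had a lower log2 difference.

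The fall of AT3G52960 was called in all 8 fits, as were falls for 9.52% of tested probes. On pair means the log2 difference was -1.25 after quantile normalisation, -0.97 after median centring and -1.26 after cyclic loess (limma adjusted p = 0.0107, 0.0143 and 0.0091). Its psaf arrays lay below its WT arrays under all 4 scalings. The same held for 35% of tested probes on the deposited scale and 17% after quantile normalisation. After median centring it held for 13.7% and after cyclic loess for 15.7%. The low WT arrays 3 and 4 stood 0.41 and 0.50 log2 below the WT median, while the neighbouring probes had median deviations of -0.08 and 0.02. Of the 4 neighbours, probe 1969 was not measured on any WT array and did not enter these medians. Leaving both out gave -1.50 (adjusted p = 0.00716). The adjacent probe 1967, unnamed here, also differed by -1.11 log2 between genotypes (limma adjusted p = 0.00344). Neighbouring probes 1965 (-0.26, adjusted p = 0.111) and 1968 (-0.10, adjusted p = 0.610) were not called.

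NTRC encodes the plastid NADPH-dependent thioredoxin reductase. Its intensity on WT arrays 1 to 6 was 0.623, 0.788, 0.508, 0.660, 0.568 and 0.576. On psaf arrays 1 to 6 it was 0.592, 0.599, 0.404, 0.484, 0.451 and 0.491. The genotypes overlapped: psaf arrays 1 and 2 read above 3 of the 6 WT arrays, while the WT mean was above every psaf array. The means of the pair means were 0.617 ± 0.0726 in WT and 0.503 ± 0.0816 in psaf (SD, n = 3 pair means), a log2 difference of -0.30 ± 0.16 (SE, limma adjusted p = 0.169). The 95% confidence interval ran from 62.5% to 105% of the WT level, so both a fall and no change lay within it.

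The direction of the NTRC difference depended on the scaling. Relative to the median probe it was -0.01, and 49.4% of tested probes had a lower difference. It was 0.05 after quantile normalisation, 0.05 after median centring and 0.08 after cyclic loess, each with a limma adjusted p of 0.688 to 0.830 on pair means. NTRC was called lower on the deposited scale over 12 arrays (adjusted p = 0.0477) and after the neighbour correction on pair means (-0.32, adjusted p = 0.0431), the settings with p-values that are too small or no check of a difference. In both genotypes the pair of arrays 1 and 2 had the highest pair mean, 0.701 in WT and 0.596 in psaf, against 0.572 to 0.579 for the other WT pairs and 0.442 to 0.471 for the other psaf pairs. Arrays within a pair differed by up to 0.38 log2 in WT and 0.26 in psaf, so the largest such differences were of the size of that between genotypes. WT arrays 5 and 6 were closer, at 0.568 and 0.576, as were psaf arrays 1 and 2, at 0.592 and 0.599. The largest within-pair difference in WT was 0.34 for PRK, 0.24 for SBPASE and 0.10 for AT3G52960. The neighbouring probe 1756, which reports Z-ISO, differed by -2.52 log2 (limma adjusted p = 0.00281), and the adjacent probe 1760, unnamed here, by 0.85 (adjusted p = 0.00515). Neighbouring probes 1757 (0.34, adjusted p = 0.186) and 1761 (-0.31, adjusted p = 0.0671) were not called.

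**Figure D3:**
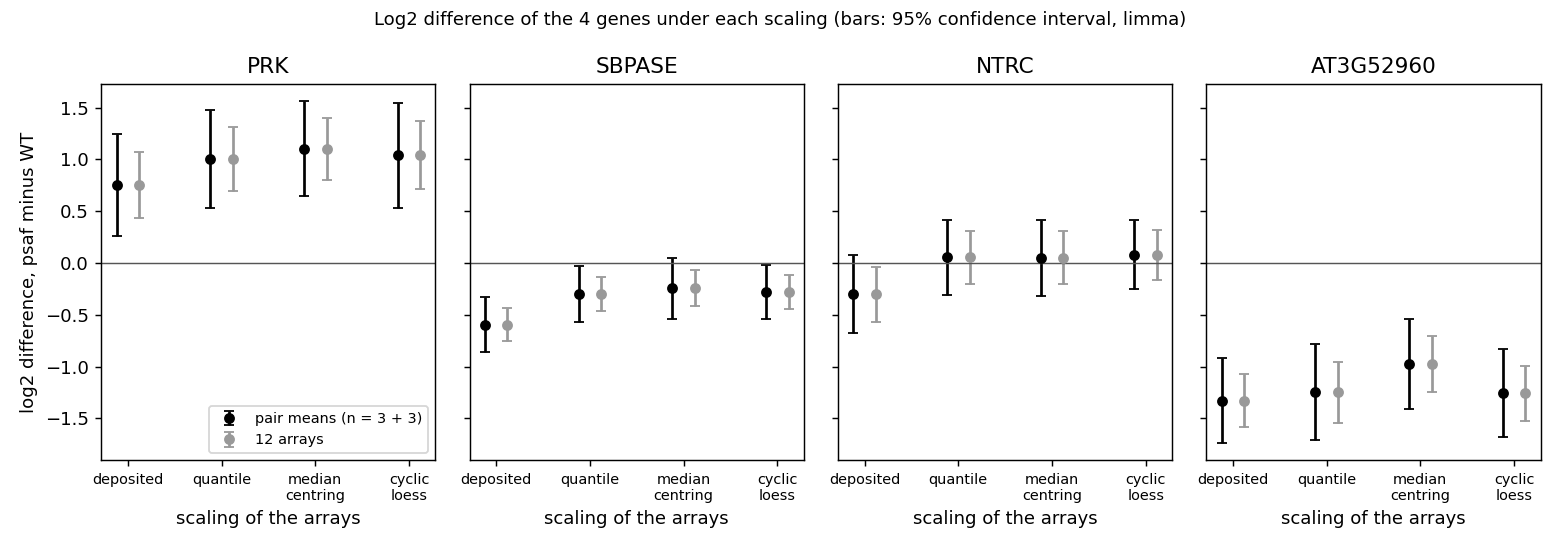
Log2 difference between psaf and WT (vertical axis) of each gene under 4 scalings of the arrays (horizontal axis), over pair means (black) and over 12 arrays (grey); bars are 95% confidence intervals from limma. PRK stays between 0.75 and 1.10 and AT3G52960 between -1.33 and -0.97, SBPASE moves from -0.59 to between -0.30 and -0.24, and NTRC changes from -0.30 to between 0.05 and 0.08.

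Because the shift of all probes changed with brightness, each gene was also set beside the tested probes of its own brightness class, taken as 10 classes of mean log2 intensity. PRK and SBPASE fell into the same class, the eighth from the dimmest, whose 326 probes had a median log2 difference of -0.26. In that class 98.5% of probes had a lower difference than PRK and 21.8% a lower difference than SBPASE. AT3G52960 was in the brightest class, where the median difference was 0.19 and 0.612% of 327 probes lay below it. Its distance from the class median, -1.52 log2, was larger than its difference on the deposited scale. NTRC was in the sixth class, whose median was -0.40, and lay 0.10 log2 above that median.

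A ratio of 2 intensities on the same array does not move with a factor that multiplies the whole array, so the 4 genes were also compared as 6 within-array ratios. Intensities of different probes do not give relative transcript abundance, and only the change of a ratio between genotypes is used. On the deposited scale that change equals the first gene's log2 difference minus the second's, as given above. The sizes and order of the 6 changes therefore follow from the differences of the 4 genes and are no separate result. PRK over SBPASE, the ratio of the 2 cycle enzymes, ran on the log2 scale from -1.02 to -0.13 in WT and from 0.67 to 1.04 in psaf. The ratio was therefore higher on every psaf array than on every WT array. Over pair means it was -0.50 ± 0.41 in WT and 0.84 ± 0.11 in psaf (SD, n = 3), a change of 1.35 log2 or 2.54-fold.

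PRK over AT3G52960 moved furthest, from -1.96 ± 0.61 to 0.12 ± 0.06 (SD, n = 3), a change of 2.08 log2 or 4.23-fold. Its WT arrays ran from -2.64 to -1.08 and its psaf arrays from 0.02 to 0.24, without overlap. PRK over NTRC changed by 1.05 log2 and NTRC over AT3G52960 by 1.03, and neither overlapped between genotypes. Arrays of single probes failed to overlap, in either direction, for 41.7% of tested probes on the deposited scale. The share over ratios of other probes was not computed, so the lack of overlap is not read as particular to these genes. SBPASE over AT3G52960 changed by 0.73 with overlapping arrays, since WT array 4 (-0.96) read above psaf array 4 (-0.98). SBPASE over NTRC changed by -0.29, also with overlap.

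An exact permutation test over 3 against 3 pair means cannot give a two-sided p below 0.10. It gave 0.10 for 5 ratios and 0.20 for SBPASE over NTRC, or 0.12 and 0.20 after Benjamini-Hochberg adjustment over the 6 ratios, so none passed. Without WT arrays 1 and 2, the low pair for PRK, the change of PRK over SBPASE was 1.11 log2, that of PRK over NTRC 0.73 and that of PRK over AT3G52960 1.80. All 6 ratios kept their direction under the alternatives for which they were recomputed. Under cyclic loess, which rescales bright and dim probes differently, SBPASE over AT3G52960 changed by 0.98 and NTRC over AT3G52960 by 1.34.

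**Figure D4:**
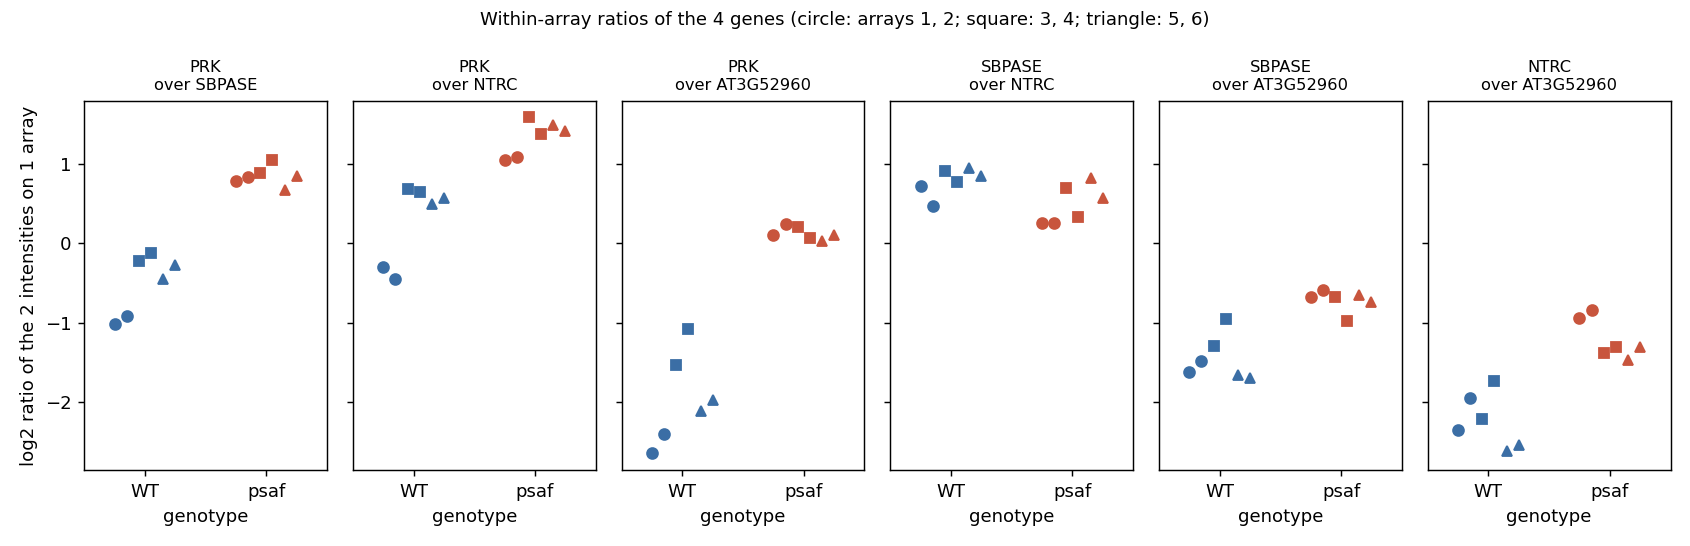
Log2 ratio of 2 intensities on the same array (vertical axis) for the 6 pairs of genes, on 6 WT and 6 psaf arrays; marker shapes give the close pairs. The ratios with PRK in the numerator lie higher on all psaf arrays than on all WT arrays, and SBPASE over NTRC overlaps.

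The rest of the pathway was thinly represented on probes with 1 gene. In a list of 25 Calvin-Benson cycle genes, 2 were tested, PRK and SBPASE, of which 1 was called higher and 1 lower. In a list of 26 plastid thioredoxins, reductases and other thiol redox proteins, 2 were tested, NTRC and AT2G04700, and 0 were called. In a list of 14 plastid genes for scavenging of peroxide and superoxide, AT3G52960 was the single one tested. Of 10 genes on the donor and acceptor side of photosystem I, 0 were tested. Of 4 other thioredoxin-regulated plastid enzymes, 1 was tested, and it was not called.

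That enzyme was AT5G58330, the NADP-dependent malate dehydrogenase, which exports reducing equivalents from the plastid as malate. It read 3.26 ± 0.238 in WT and 3.27 ± 0.676 in psaf (SD, n = 3 pair means), a log2 difference of -0.02 with a 95% confidence interval of -0.44 to 0.41 (limma adjusted p = 0.952). Psaf array 4 was the lowest, at 1.98, against 3.18 on its partner array 3. AT2G04700 read 0.427 ± 0.123 in WT and 0.509 ± 0.00974 in psaf, a log2 difference of 0.30 (limma adjusted p = 0.329). Its WT arrays 1 and 2, at 0.275 and 0.304, were again below the other WT arrays, at 0.460 to 0.538, and correcting for neighbours left a difference of 0.14. Under the other scalings it was 0.63 to 0.70 (limma adjusted p = 0.0662 to 0.0695).

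Among markers of green tissue 1 of 5 antenna genes was tested, LHB1B2 (AT2G34420), at 13.7 ± 3.06 in WT and 12.1 ± 1.41 in psaf (SD, n = 3 pair means, limma adjusted p = 0.499). Its log2 difference was -0.17 on the deposited scale, -0.51 after quantile normalisation (adjusted p = 0.0795), -0.47 after cyclic loess (0.0886) and 0.19 after median centring (0.530), so its direction turned with the scaling. Of 7 markers of non-green tissue and senescence, 0 were tested. Beyond LHB1B2, the cell types in the samples were therefore not checked by markers.

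The genes whose log2 profile over the 12 arrays was most like that of each member were taken by Pearson r among the 648 other tested probes with 1 gene. These 12 points share the 2 genotypes and the close pairs, so r is given as a description. For PRK the nearest were AT3G56330 (r = 0.93), AT4G09620 (0.93) and AT2G15440 (0.91), and 6 genes in all had an r above 0.9. Their log2 differences were 0.48 (limma adjusted p = 0.0240), 1.18 (0.00409) and 0.27 (0.1002). With the genotype means subtracted, their r with PRK was 0.75, 0.80 and 0.69. These genes were picked by r on the same arrays, and the WT spread of PRK lay in arrays 1 and 2. On those arrays probes deviated together with their neighbours in probe number, and the part of this in r was not tested.

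For AT3G52960 the nearest profile was that of ATATH8 (r = 0.99), which fell from 0.986 ± 0.0944 to 0.429 ± 0.0283 (SD, n = 3 pair means, limma adjusted p = 0.00281). It was followed by AT5G02050 and AT5G15390 (both r = 0.97), which differed by -0.84 and -1.20 log2. For ATATH8, AT5G02050 and AT5G15390, r after subtracting the genotype means was 0.82, 0.59 and 0.52. An r above 0.9 was shared by 53 genes for AT3G52960 and by 65 for SBPASE.

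For SBPASE the nearest were LPA19 (r = 0.98), a gene named for low photosystem II accumulation, Z-ISO (0.97), the zeta-carotene isomerase, and AT5G02050 (0.97). LPA19 differed by -0.37 log2 (limma adjusted p = 0.0331), Z-ISO by -2.52 and AT5G02050 by -0.84, so a like profile did not mean a like size of difference. After median centring these r values were 0.67, 0.82 and 0.86, and after subtracting the genotype means instead they were 0.84, 0.66 and 0.68. For NTRC the nearest were AT2G26100 (r = 0.92), AT4G13200 (0.87) and AT-HF (0.86), a gene of histidine synthesis. None of these 3 passed the limma test on pair means (adjusted p = 0.211, 0.106 and 0.0669). With the genotype means subtracted their r with NTRC was 0.88, 0.79 and 0.82.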

How the data were processed

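The deposited table gives 1 linear intensity per probe and array, normalised by the authors before deposit. Not given in the sources used here are their scanning, background correction and scaling, so the normalisation method stays unknown. Values ran from 0 to a ceiling of 100 in the deposited intensity table. A value of 0 was taken as missing, and testing required 4 or more measured arrays per genotype, which left 3266 of 3439 probes. Probes were named from the platform annotation: 692 had 1 gene, 870 several and 1877 none listed, and 690 of the 692 matched a RefSeq table of assembly TAIR10.1, used for names only. No coordinates are reported, for want of a stated build.

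Log2 intensities on the deposited scale were averaged over close pairs and fitted by genotype alone with lmFit and eBayes of limma 3.58.1 (R 4.3.3). Tests were two-sided, adjusted by Benjamini-Hochberg over all tested probes, at a threshold of 0.05. Close pairs were arrays of a genotype that were mutually nearest when log2 values were subtracted and the robust SD taken, with a within-pair correlation of 0.76 in limma. For the neighbour correction, the 4 nearest probe numbers were expressed as deviations from their genotype's median, and the median of those measured was subtracted on each array. Named genes were the 4 members, every tested gene of the lists, and for each member the 3 genes of highest Pearson r. The members, lists, pair averaging and alternatives were chosen with earlier results of these data known. The alternatives were other scalings, units of replication, blocks, an offset, filters, variance models, weights, left-out arrays and pairs, an exact Wilcoxon test, and stricter thresholds. The fits were also run on simulated data, in which probes varied independently and no overall shift was set, and no result here rests on that run. The replicate numbers were not taken to pair WT and psaf arrays, because the deviations of same-numbered arrays correlated above 0.1 for only 4 of 6 numbers (0.02 to 0.26). Same-numbered pair means correlated above 0.1 for 2 of 3 (-0.02 to 0.21). These values do not settle whether the numbers pair the genotypes, and the number was used as a block among the alternatives.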

Additional observations from a re-analysis of the deposited data

How the results depend on the processing

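AT3G52960 kept its direction and its call under every alternative run, with log2 differences of -1.50 to -0.97. The PRK call was lost at an adjusted p threshold of 0.01 (0.75, adjusted p = 0.0286). Leaving out single arrays gave PRK 0.69 to 0.81, SBPASE -0.63 to -0.55, NTRC -0.36 to -0.24 and AT3G52960 -1.36 to -1.30. Leaving out a close pair gave 0.52 to 0.90, -0.66 to -0.52, -0.43 to -0.21 and -1.50 to -1.21 in the same order. SBPASE lost its call on pair means after quantile normalisation (-0.30), median centring (-0.24) and cyclic loess (-0.28). NTRC turned positive, without a call, after quantile normalisation (0.0536), median centring (0.0510) and cyclic loess (0.0799), on pair means and over 12 arrays. It was called over 12 arrays (-0.30), with the replicate number as a block over 12 arrays (-0.30, adjusted p = 0.00362) and after the neighbour correction (-0.32), which reduces the spread within a genotype by construction. The block changed no other call of these 4 genes, and with the pair number as a replicate block over pair means NTRC was not called (adjusted p = 0.0595). SBPASE over AT3G52960 changed by 0.98 under cyclic loess and by 0.95 after quantile normalisation, against 0.73 on the deposited scale. For NTRC over AT3G52960 these changes were 1.34, 1.30 and 1.03.

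The main counts were 157 probes higher and 1114 lower in psaf. Over 12 arrays 359 and 1638 were called, with the replicate block over 12 arrays 396 and 1752, and by the exact Wilcoxon test 352 higher. On pair means the counts were 287 and 420 after quantile normalisation, 429 and 329 after median centring and 357 and 405 after cyclic loess. Over 12 arrays these scalings gave 725 and 854, 926 and 722, and 823 and 797. The neighbour correction gave 291 higher, a threshold of 0.01 gave 63 and 516, and a fold of at least 1.5 gave 96 higher. Leaving out a pair gave 83 to 169 higher and 621 to 1096 lower, with the lowest counts without psaf arrays 3 and 4 (83 and 710) and without psaf arrays 5 and 6 (88 and 621), and 102 higher without psaf arrays 1 and 2. Leaving out single arrays gave 151 to 162 and 1065 to 1121. The cause of these changes was not tested. Without raw signals and backgrounds, how dim a probe must be to escape detection could not be set.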

Other observations

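The link between a probe and its neighbours in probe number differed between arrays. Across the 3266 tested probes, the deviation of a probe from its genotype's median and the median deviation of its 4 nearest probe numbers had a Pearson r of 0.85 and 0.84 on WT arrays 1 and 2. It was 0.78 on each of WT arrays 3 and 4, and 0.45 and 0.41 on WT arrays 5 and 6. On the 6 psaf arrays it was 0.09 to 0.18. These r values are across probes, which are not independent replicates, and the layout of the probes was not given in the sources used here. PRK and AT2G04700 both had their lowest WT values on WT arrays 1 and 2. For PRK the values without these arrays are given above, and for AT2G04700 the part of this pattern was not tested.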
